A study of Mus musculus with 22 samples.

Results

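The miR-148 and miR-152 family comprises miR-148a, miR-148b and miR-152, and was taken here as the probes mmu-miR-148a, mmu-miR-148b and mmu-miR-152, which are 3 of 566 mouse miRNA probes on a NanoString nCounter panel. The panel gave no probe for the opposite strands of the 3 hairpins. Barcodes were counted in 22 mouse samples of a fallopian tube (FT) cancer model, in which Cre made in Pax8-expressing cells (the secretory lineage of the tube) acts on conditional alleles, among them Brca1 or Brca2, once doxycycline is given. The groups were control FT of uninduced mice (CT, n = 5), doxycycline-induced FT (FT, n = 5), metastatic tumors of induced mice (M, n = 5), control plasma (CS, n = 3) and tumor plasma (TS, n = 4), and the comparisons ask which miRNAs differ in induced tubes, in tumors and in the blood.

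Every CT mouse carried the same kinds of conditional alleles, uninduced. Their Brca alleles were Brca1 fl/fl in 2, Brca1 fl/+ in 1, Brca2 fl/fl in 1 and Brca2 fl/+ in 1. Among FT, FT2 was Brca1 -/-, FT4 was Brca2 -/-, and FT1, FT3 and FT5 were Brca2 -/+. Among M, M1 and M3 were Brca2 -/-, M4 was Brca2 -/+ and M2 and M6 were Brca1 -/+. M1 to M4 were peritoneal metastatic tumors and M6 was an ovarian metastatic tumor. CS2, CS3 and CS4 are plasma of mice CT2, CT3 and CT4, and TS1, TS2, TS3 and TS4 are plasma of mice FT2, FT3, FT4 and FT5. The labels give the source of TS as serum in 1 field and plasma in the others. Ages were not given in the sources used here, and no probe reads Brca1 or Brca2, so that the deletions were not checked.

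A miRNA pairs through its seed, bases 2 to 8, with sites in the 3' untranslated regions of mRNAs and lowers the amount or the translation of those mRNAs, so miRNAs with 1 seed share many targets. The miR-148 and miR-152 family is best known for repressing Dnmt1, the maintenance DNA methyltransferase. miR-148a is abundant in liver, among other tissues. The hairpins of miR-148b and miR-152 lie in Copz1 and Copz2, which encode paralogous zeta subunits of the COPI vesicle coat.

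The mature strands are shown because their near identity sets what the probes had to tell apart, with the seed in capitals (RefSeq, GRCm38.p6; the older names on the panel stand for the 3' strands).
miR-148a: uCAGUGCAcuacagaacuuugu
miR-148b: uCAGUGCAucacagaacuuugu
miR-152: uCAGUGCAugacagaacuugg
Of 1679 mature miRNA names in the RefSeq table, these 3 (0.179%) hold the seed CAGUGCA. Counting from 1 at the 5' end, miR-148a differs from miR-148b by C9U and U10C and is identical at 20 of 22 bases. From miR-148a to miR-152 the changes are C9U, U10G and U20G, with 18 of 21 compared bases identical and 1 base fewer at the end. miR-148b and miR-152 differ by C10G and U20G and share 19 of 21 bases. All the differences lie outside the seed, and whether a probe also counted a relative was not tested.

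In GRCm38.p6, mature miR-148a lies at chr6:51269829-51269850 on the minus strand, within the hairpin at 51269812 to 51269910 and within the span of the predicted gene Gm38821. Mature miR-148b lies at chr15:103285185-103285206 on the plus strand, within the span of Copz1 (103272888 to 103299865). Mature miR-152 lies at chr11:96850439-96850459 on the plus strand, within the span of Copz2 (96849876 to 96861203). The annotation used holds gene spans but no exons, so that intron or exon was not assigned.

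The miRNA counts of a sample summed to between 70164 and 598321 in tissue and between 18350 and 269005 in plasma. A count was called above background where it exceeded the mean plus 2 SD of the 8 negative hybridization controls of its sample, whose means ran from 7.75 to 31.5 counts. miR-148a was above background in 22 of 22 samples, miR-152 in 19 and miR-148b in 17. The samples below were FT2, M4 and CS2 for both weaker members, and also FT4 and CS3 for miR-148b. FT2 stood apart, with the lowest miR-148a of all samples. CS2 and CS3 were the shallowest samples, with 36639 and 18350 miRNA counts.

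Normalized counts are counts scaled within each sample to the geometric mean of its reference miRNAs, the 100 with the highest mean counts in tissue and the 30 highest in plasma, so that tissue and plasma values stand on separate scales. miR-148a belongs to both scaling sets, and miR-148b and miR-152 to the tissue set. In CT its normalized counts were 5713, 5686, 5818, 8796 and 9018 in CT1 to CT5. In FT they were 10734 in FT1, 123 in FT2, 7075 in FT3, 4421 in FT4 and 8367 in FT5. The CT samples lay within 1.59-fold of each other, whereas FT spanned 87.1-fold, all but FT2 lying within the range of 4421 to 10734. In M, miR-148a was at 490 in M1, 2534 in M2, 3006 in M3, 660 in M4 and 3334 in M6, each below every CT sample. In CS it was at 1251, 1736 and 2217 in CS2 to CS4, and in TS at 1265, 7686, 2065 and 2604 in TS1 to TS4. TS2 was the highest plasma sample, and TS1 and TS3 lay within the range of CS.

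miR-148b had normalized counts of 182, 138, 87.1, 174 and 187 in CT1 to CT5. FT1 to FT5 gave 160, 52.1, 125, 29.8 and 172.2. The values of FT2 and FT4 rested on 22 and 15 counts and were not above background, so that they are upper readings rather than levels. M1 to M4 and M6 gave 120, 96.8, 171, 84.6 and 122, all but 1 within the CT range. In plasma, CS2 to CS4 were at 63.5, 103 and 55.1 and TS1 to TS4 at 113, 160, 148.3 and 55.6. With counts of 20 and 14, CS2 and CS3 were not above background, which leaves 1 measured control plasma sample for this member.

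miR-152 had normalized counts of 511, 373, 320, 399 and 330 in CT1 to CT5, the narrowest relative spread of the 3 members in CT (coefficient of variation 19.8%). FT1 to FT5 gave 422, 47.4, 413, 193 and 534, with FT2 not above background. M1 to M4 and M6 gave 409, 1546, 794, 50.8 and 745. M was the most variable group for miR-152, with 3 of 5 tumors above every CT sample and M4, not above background, below all of them. CS2 to CS4 were at 79.4, 214 and 92.0, and TS1 to TS4 at 84.0, 431, 336 and 97.4. TS2 and TS3 exceeded all CS samples, and TS1 and TS4 lay within their range.

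**Figure D1:**
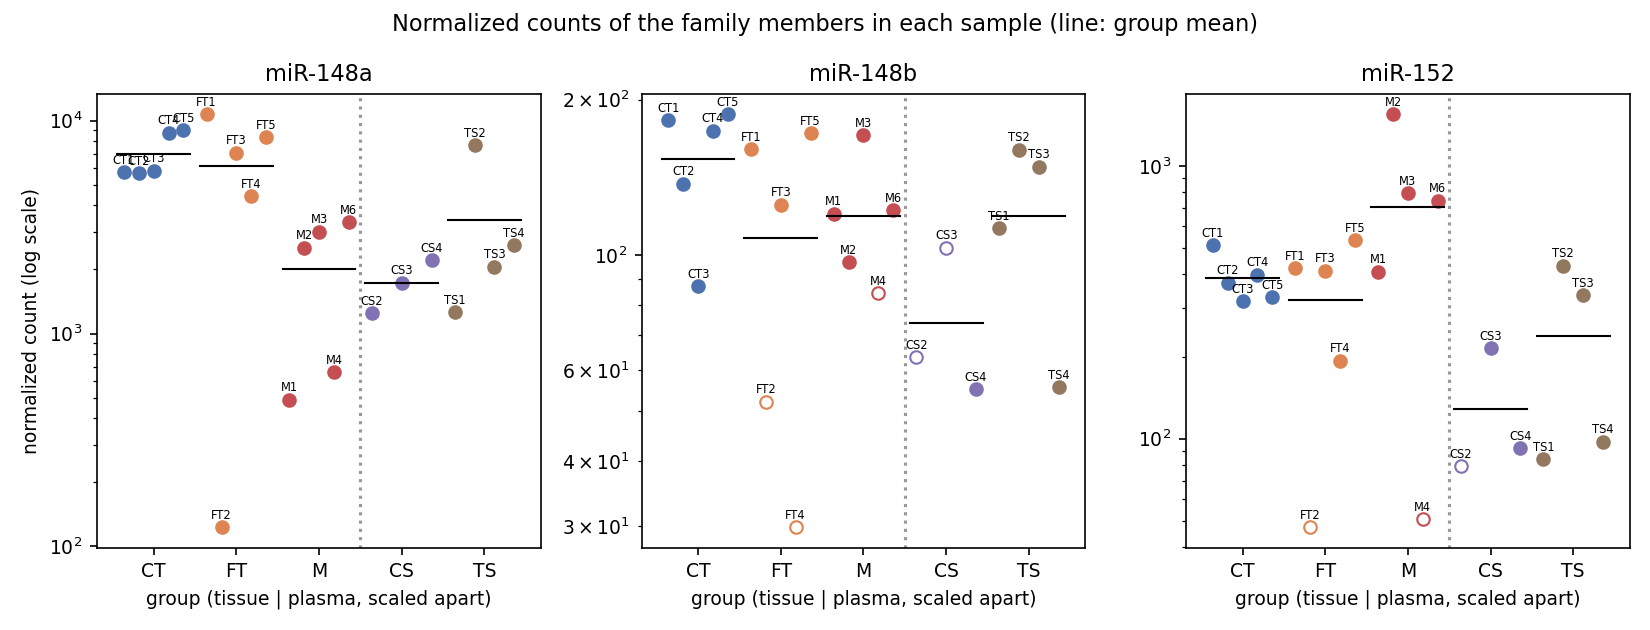
Normalized counts (log scale) of miR-148a, miR-148b and miR-152 in each sample by group, with the group mean as a line and hollow points where the count was not above the negative controls. miR-148a was below every CT sample in all 5 M samples, and FT2, at 123, was the lowest sample for miR-148a.

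The difference between metastatic tumors and control tubes in miR-148a was the only one of the family's comparisons past the threshold. Its mean was 2005 ± 1337 in M (SD, n = 5) and 7006 ± 1738 in CT (SD, n = 5), and it fell by edgeR with a log2 fold change of -1.80 ± 0.56 (SE; 95% interval -2.97 to -0.64; quasi-likelihood test, adjusted p = 0.0383 over 566 miRNAs). This is 3.49-fold lower, and the groups did not overlap (exact two-sided permutation test, p = 0.00794, the smallest that 5 samples against 5 allow). edgeR called 82 of 566 miRNAs in M against CT (14.5%), 58 of them higher (10.2%) and 24 lower (4.24%), and 29 (5.12%) lay lower in M without overlap. The split of higher to lower calls moved with the scaling, to 83 and 68 with TMM, 92 and 71 with median-of-ratios, 70 and 10 with miR-425 and 42 and 71 with total count scaling. By fold change miR-148a was the 17th lowest of 566 and the 15th lowest of the 133 whose mean count reached 50. The median log2 fold change of all miRNAs was 0.29, and the difference of miR-148a from that median was -2.10, or -2.21 to -1.67 under the other scalings.

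The direction was lower under each of the 16 other settings run, and 10 of them kept the call, among them the methods' t-test at its unadjusted p and a scaling set chosen after seeing the data. The adjusted p was 0.0712 with TMM scaling, 0.0851 with median-of-ratios scaling, 0.0738 with miR-425 scaling, 0.445 with positive ligation control scaling and 0.159 with CT, FT and M in 1 fit, all by edgeR, and 0.143 with the methods' t-test after adjustment. The call was also lost without any 1 of CT1, CT2, CT3, CT4, CT5, M1 or M4 (edgeR, adjusted p = 0.0520 to 0.0916), with log2 fold changes between -2.07 and -1.56 over the 10 samples left out in turn.

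miR-148b and miR-152 did not pass the test in the same tumors. miR-148b averaged 119 ± 33.1 against 153.7 ± 42.0 in CT (SD, n = 5 each), with a log2 fold change of -0.37 that was 0.00417 under miR-425 scaling, and a 95% interval of -1.20 to 0.46 (edgeR, adjusted p = 0.519, exact permutation p = 0.183). miR-152 averaged 708.8 ± 555 against 386.6 ± 76.7 in CT, a log2 fold change of 0.88 with an interval of -0.42 to 2.17 (edgeR, adjusted p = 0.339, exact permutation p = 0.817). In 4 of 5 tumors miR-152 exceeded the CT mean. Its log2 fold change was 1.18 without M4 and 0.37 without M2 (edgeR, adjusted p = 0.0914 and 0.684). It was 0.17 with a replicate block and 0.25 with limma (pseudocount 1) or the methods' t-test, which average log values.

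The ratio of 2 members within a sample does not depend on the scaling. Differences in log2 ratio were tested for 3 pairs of members in 4 comparisons, and none passed after adjustment over these 12 tests. miR-148a over miR-148b was 31.3 to 66.8 in CT and 4.07 to 27.3 in M, with no overlap. The mean log2 ratio differed by -1.81 ± 0.56 (SE, exact permutation p = 0.00794, adjusted p = 0.0952). The M4 ratio, 7.80, is only a lower bound, since its miR-148b count was not above background. In M1, the lowest at 4.07, miR-148b had 45 counts against a background limit of 44.7. miR-148a over miR-152 was 11.2 to 27.3 in CT. In M it was 1.20 in M1, 1.64 in M2, 3.79 in M3, 13.0 in M4 and 4.48 in M6. All M but M4 lay below every CT sample. The miR-152 count of M4 was not above background, so that its ratio is only a lower bound. The mean log2 ratio differed by -2.42 ± 0.64 (SE, exact permutation p = 0.0159, adjusted p = 0.0952). With a pseudocount of 10 on the counts both differences passed (exact permutation, adjusted p = 0.0476), at -1.89 and -2.49. With the negative controls subtracted both were -1.62 and neither passed (exact permutation, adjusted p = 0.0952 and 0.784), the second with an SE of 1.41. miR-148b over miR-152 differed by -0.61 ± 0.79 (SE, exact permutation p = 0.508, adjusted p = 0.971), from a geometric mean of 0.389 in CT to 0.255 in M.

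**Figure D2:**
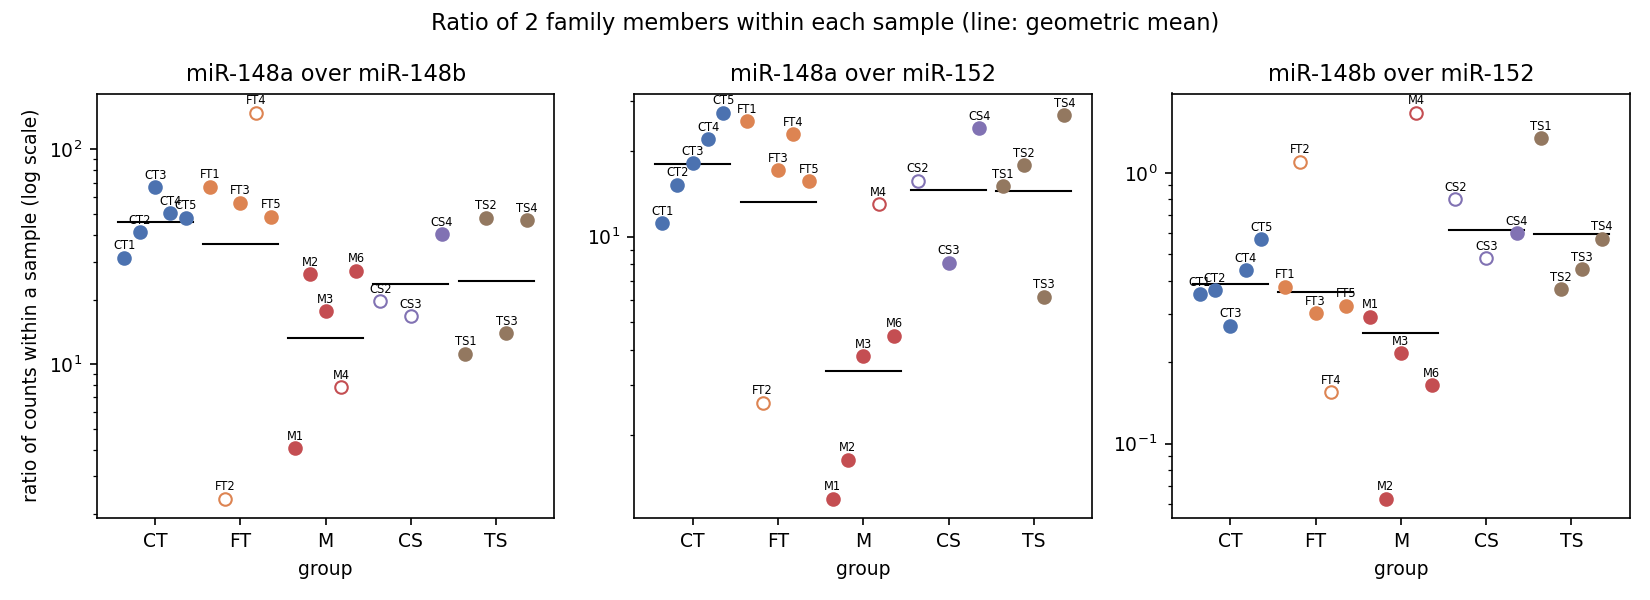
Ratio of counts of 2 family members within each sample (log scale) by group, with the geometric mean as a line and hollow points where a member was not above the negative controls. The geometric mean of miR-148a over miR-152 was 18.0 in CT and 3.37 in M, with M4 at 13.0 inside the CT range.

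Markers of cell types also differed between M and CT, and their part in the result was not tested. In bulk tissue, fewer cells of a type and less RNA per cell cannot be told apart. Of 5 ciliated cell miRNAs on the panel 4 were lower (miR-34c, miR-449a and both miR-34b strands), with summed normalized counts of 312 to 3767 in CT and 27.9 to 88.3 in M, where none was above background. Of 5 smooth muscle and stromal miRNAs 3 were lower (miR-143, miR-145 and miR-1), with sums of 4713 to 13280 in CT and 626 to 3821 in M. The 5 epithelial miRNAs of the miR-200 family, which includes miR-141, summed to 9285 to 11038 in CT and 242 to 42010 in M, where M4 was the highest sample. Only miR-141 of these was called, and was lower. The other 4 did not pass, with log2 fold changes from -1.43 to 0.66, and the list median was 0.01. Leukocyte (miR-223), erythrocyte (miR-486), endothelial (miR-126-3p) and liver (miR-122) lists each had 1 member higher. miR-486 and miR-122 were not above background in any CT sample. The other endothelial probe, miR-126-5p, the opposite strand of the same hairpin, did not pass and had a log2 fold change of -0.83 (edgeR, adjusted p = 0.274). Leukocyte sums were 593 to 1164 in CT and 967 to 6301 in M, endothelial sums, nearly all miR-126-3p, 4224 to 6683 and 7887 to 19897, erythrocyte sums 2881 to 4771 and 2233 to 14358, and liver sums 66.2 to 93.7 and 64.2 to 587. Most of the erythrocyte sums was miR-16, with means of 3421 in CT and 7576 in M, against 224 and 1017 for miR-451.

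Other miRNAs known for targeting DNA methyltransferases or histone modifiers were counted beside the family. Of 10 such miRNAs, 5 were lower in M than in CT by edgeR, 0 were higher and 5 did not pass, where 4.24% of all miRNAs were called lower, or 19 of the 133 whose mean count reached 50. The list's median log2 fold change was -1.25, against 0.29 for all miRNAs. The 3 miR-29 miRNAs, which target Dnmt3a and Dnmt3b, were all among the lower. miR-29c fell by 3.81 on the log2 scale (edgeR, adjusted p = 0.000104), miR-29b fell by 3.29 (adjusted p = 0.00155) and miR-29a fell by 1.43 (adjusted p = 0.0288). miR-101a, known for Ezh2, fell by 1.44 (edgeR, adjusted p = 0.0383) but was not above background in any M sample. miR-449a, known for Hdac1 and also in the ciliated list, fell by 1.99 (edgeR, adjusted p = 0.0138), and it too was not above background in any M sample. The 5 that did not pass were miR-26a, miR-26b, miR-101b, miR-200b and miR-200c, with log2 fold changes from -1.08 to 0.66. miR-200b and miR-200c are also in the epithelial list.

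Induced tubes gave no family member past the threshold. miR-148a averaged 6144 ± 4065 (SD, n = 5) in FT against 7006 ± 1738 in CT, a log2 fold change of -0.19 with a 95% interval of -1.69 to 1.31 (edgeR, adjusted p = 0.914, exact permutation p = 0.603). For miR-148b the means were 108 ± 64.0 and 153.7 ± 42.0, and the log2 fold change was -0.50 with an interval of -1.56 to 0.57 (edgeR, adjusted p = 0.759, exact permutation p = 0.214). For miR-152 they were 321.6 ± 197 and 386.6 ± 76.7, and the log2 fold change was -0.26 with an interval of -1.43 to 0.91 (edgeR, adjusted p = 0.862, exact permutation p = 0.452). edgeR called 1 of 566 miRNAs in this comparison (0.177%), and 41 had an unadjusted p under 0.05 (7.24%). The call was the liver miRNA miR-122, higher in FT but not above background in any CT sample. Its normalized counts were 1269 in FT3, 168 in FT5 and 18.5 to 31.8 in the other FT samples. The sign of the family members' changes was not stable to the scaling. TMM gave 0.15 for miR-148a, and positive ligation controls gave 1.06, 0.63 and 0.74 for miR-148a, miR-148b and miR-152, beside a median of 0.58 over all miRNAs. In the other direction, miR-148a was at -1.09 with limma (pseudocount 1) or the methods' t-test and at -0.70 with a replicate block.

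FT2 was low for all 3 members. Without it, the log2 fold change against CT was 0.13 for miR-148a, -0.32 for miR-148b and 0.0148 for miR-152 (edgeR, adjusted p = 0.983, 0.921 and 0.997). In FT2 miR-148a had 52 counts against a background limit of 36.1, ranked 94th among 566 miRNAs and took 0.0296% of miRNA counts, against ranks of 5 to 20 and shares of 1.03% to 5.14% in the other FT samples. The ciliated sum was also lowest in FT2 of all FT samples, at 94.7, and FT4 was next at 123.3, with miR-148a at 4421. In FT2, 52 counts scale to 123, so its ciliated sum over 5 probes rests on few counts. The erythrocyte sum was lowest of FT in FT2 too, at 1623, of which miR-16 alone made up 1241. The epithelial sum of FT2, 18151, was above the FT median of 15976. The endothelial probes differed there, with miR-126-3p highest of FT at 54989 and miR-126-5p lowest of FT at 52.1. That miR-126-5p value equals the one of miR-148b in FT2, which came from 22 counts, so it was not above background. The part of these markers in the family's values was not tested.

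M and FT, the direct comparison of tumors with induced tubes, did not differ past the threshold for any member. The log2 fold change was -1.62 for miR-148a (95% interval -3.50 to 0.27; edgeR, adjusted p = 0.718, exact permutation p = 0.452). It was 0.13 for miR-148b (interval -1.19 to 1.45; edgeR, adjusted p = 0.993, exact permutation p = 0.524) and 1.14 for miR-152 (interval -0.58 to 2.86; edgeR, adjusted p = 0.993, exact permutation p = 0.413). edgeR called 9 of 566 miRNAs here (1.59%). miR-148a over miR-152 differed by -1.98 ± 0.85 in mean log2 ratio (SE, exact permutation p = 0.0635, adjusted p = 0.254), and miR-148a over miR-148b by -1.47 ± 1.16 (SE, exact permutation p = 0.230, adjusted p = 0.690). Without FT2 these were -2.56 and -2.45, and both passed (exact permutation, adjusted p = 0.0476). FT2 was the lowest FT sample in both ratios, so leaving it out removed the extreme value of what was tested. Of the 10 samples left out in turn, it was the only 1 without which either ratio passed. For miR-148a itself the log2 fold change without FT2 was -1.93 (edgeR, adjusted p = 0.218). In the list of other epigenetic regulators 0 of 10 passed in M against FT, and the lowest p was that of miR-29c (log2 fold change -3.23, edgeR, adjusted p = 0.0629). FT against CT also gave 0 of 10. There the median log2 fold change was 0.06 and miR-200b had the lowest p.

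**Figure D3:**
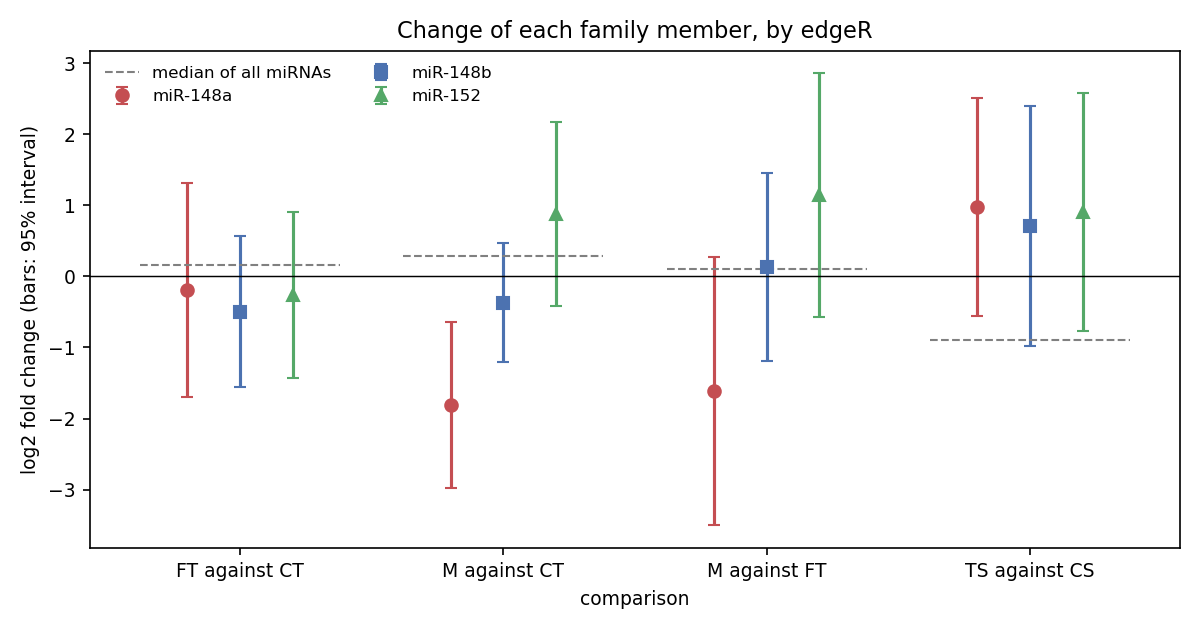
edgeR log2 fold changes of the 3 members in each comparison, with 95% intervals as bars and the median of all 566 miRNAs as a dashed line. The interval of miR-148a in M against CT, -2.97 to -0.64, is the one behind the single call.

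Plasma of tumor-bearing mice had higher means of all 3 members than control plasma, and none passed the test. miR-148a averaged 3405 ± 2907 (SD, n = 4) in TS and 1735 ± 483 (SD, n = 3) in CS. The log2 fold change was 0.97 with a 95% interval of -0.56 to 2.51 (edgeR, adjusted p = 0.570, exact permutation p = 0.4). miR-148b averaged 119 ± 46.9 and 74.0 ± 25.8, a log2 fold change of 0.71 with an interval of -0.98 to 2.40 (edgeR, adjusted p = 0.646, exact permutation p = 0.229). miR-152 averaged 237 ± 173 and 129 ± 74.5, a log2 fold change of 0.90 with an interval of -0.77 to 2.58 (edgeR, adjusted p = 0.590, exact permutation p = 0.343). With 4 samples against 3 the exact test cannot go below 0.0571. edgeR called 0 of 566 miRNAs (0%), DESeq2 also 0, and 42 had an unadjusted p under 0.05 by edgeR (7.42%). The median log2 fold change of all miRNAs was -0.89 in this comparison, and 0.32 among the 95 whose mean count reached 50. The 3 members lay 1.60 to 1.86 above the first of these medians and 0.39 to 0.65 above the second on the log2 scale.

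Without TS2 the log2 fold change of miR-148a was 0.19, that of miR-148b 0.53 and that of miR-152 0.44 (edgeR, adjusted p = 0.911, 0.803 and 0.827). TS2 had the highest summed level of the liver miRNAs miR-122, miR-192 and miR-194, 102270 (miR-122 alone 101114), against 29314 to 37894 in CS. TS3 and TS4 also exceeded every CS sample, at 82682 and 79856, with miR-148a at 2065 and 2604. TS1 was at 36388, with miR-148a at 1265. Of the liver miRNAs, miR-122 had a log2 fold change of 1.15 in TS against CS, miR-192 of 0.34 and miR-194 of -0.57. None of them passed. Smooth muscle and stromal sums were 1943 in TS2, 2107 in TS3, 660 in TS1 and 266 in TS4, against 562 to 731 in CS. Erythrocyte sums were 7721 to 65025 in TS and 17081 to 44989 in CS. The part of the cell type lists in the plasma values was not tested. The plasma ratios rest on few counts in CS, where miR-148b was not above background in 2 of 3 samples and miR-152 in 1. miR-148a over miR-152 had a geometric mean of 14.5 in each, and the mean log2 ratio differed by -0.01 ± 0.64 (SE, exact permutation p = 0.971, adjusted p = 0.971). With the negative controls subtracted it differed by -0.65, and miR-148a over miR-148b and miR-148b over miR-152 differed by -1.33 and 0.68 (exact permutation, adjusted p = 0.784 each). Of the 10 other epigenetic regulators 0 passed in plasma. The list's median log2 fold change was -0.43, and miR-200b had the lowest p.

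The change in plasma was set against the change in the tube by an interaction term. The difference in log2 fold change, TS against CS less FT against CT, was 1.16 ± 1.15 (SE) for miR-148a, 1.21 ± 0.85 for miR-148b and 1.17 ± 0.96 for miR-152 (edgeR, adjusted p = 0.610, 0.548 and 0.566). edgeR called 0 of 566 miRNAs (0%) in this test, and 57 had an unadjusted p under 0.05 (10.1%). The test does not take into account that the mice of TS and of 4 FT samples, and of CS and of 3 CT samples, are the same.

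Abundance in plasma is part of why the family was chosen, so ranks are given as a description only. By count, miR-148a ranked 6th to 11th among 566 miRNAs in CS and 5th to 12th in TS, and took 1.62% ± 0.77 (SD, n = 3) and 2.01% ± 1.47 (SD, n = 4) of miRNA counts. It ranked 4th to 10th in CT with 4.10% ± 1.09 (SD, n = 5) and 17th to 51st in M with 0.918% ± 0.685 (SD, n = 5). miR-152 ranked 34th to 82nd in plasma, 48th to 57th in CT and 23rd to 156th in M. miR-148b ranked 53rd to 94th in plasma, 70th to 89th in CT and 85th to 110th in M. Probes can differ in efficiency, so the order of the members by count is not an order of molecules.

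In 7 mice both plasma and tube were measured, with less RNA input for plasma. miR-148a ranked 11th in the plasma CS2 and 10th in its tube, 11th and 8th for CS3, and 6th and 4th for CS4. For the induced mice it ranked 12th in TS1 and 94th in the tube FT2, 5th in both TS2 and FT3, 11th in TS3 and 20th in FT4, and 7th in TS4 and 5th in FT5. In the mouse with the lowest tube level, miR-148a in plasma thus ranked 1 place below CS2 and CS3.

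**Figure D4:**
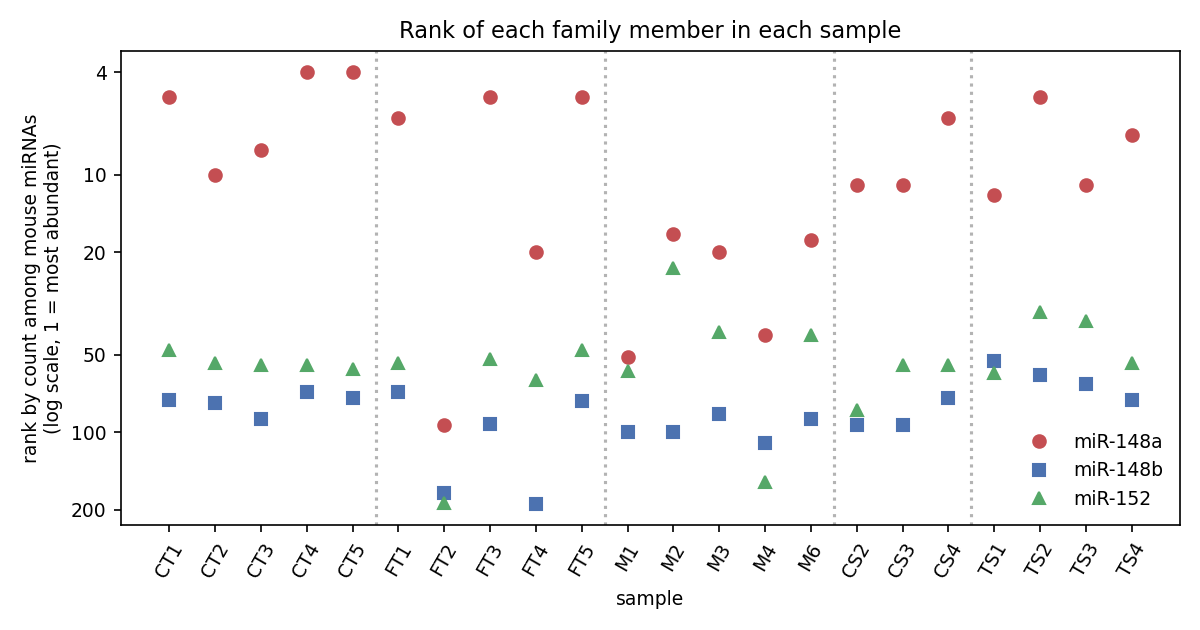
Rank by count among 566 miRNAs (log scale, 1 is the most abundant) of each member in each sample by group. miR-148a lay between ranks 5 and 12 in all 7 plasma samples and at 94 in FT2.

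The members did not follow each other closely across tissue samples. Over 15 tissue samples, Pearson's r of log2(normalized count + 1) was 0.492 between miR-148a and miR-148b, 0.587 between miR-148a and miR-152 and 0.536 between miR-148b and miR-152, given as descriptions since the points share scaling and groups. Among the 140 whose mean count reached 50 in tissue, the closest to miR-148a were miR-30c (0.929), miR-126-5p (0.882) and miR-26b (0.878). miR-30c, like miR-148a, was lowest in FT2, at 135, and had group means of 2577 in CT, 1451 in FT and 828 in M. Closest to miR-148b were miR-103 (0.841), miR-425 (0.824) and miR-350 (0.793). Closest to miR-152 were miR-199a-3p (0.871), miR-130a (0.851) and miR-16 (0.838). miR-199a-3p, a miRNA of fibroblasts and other mesenchymal cells, was lowest in M4 and highest in M2, as miR-152 was within M.

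Over the 7 plasma samples and 94 miRNAs, the closest to miR-148a were miR-22 (0.924), miR-29c (0.844) and miR-365 (0.797), all highest in TS2. The closest to miR-148b were miR-145 (0.910), miR-199a-3p (0.894) and miR-423-5p (0.893), and to miR-152 miR-143 (0.902), miR-423-5p (0.870) and miR-145 (0.866). Between members r was 0.819 for miR-148b and miR-152, 0.678 for miR-148a and miR-152 and 0.382 for miR-148a and miR-148b, with 2 of 7 miR-148b values and 1 of 7 miR-152 values not above background.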

How the data were processed

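Total RNA of 15 tissue and 7 plasma samples was profiled by the authors with the nCounter miRNA assay, version 1.5 per the labels, in which barcodes are counted for 626 probes. The deposited values are raw barcode counts, 566 of mouse miRNAs and 60 of controls and other probes; how the counts were handled before deposit is not given in the sources used here. The authors normalized in nSolver, and this was repeated by dividing by the geometric mean of the 100 (tissue) or 30 (plasma) miRNAs with the highest mean counts, without background subtraction. Samples of the 2 groups compared were fitted on all 566 miRNAs in R 4.3.3 by the quasi-likelihood test of edgeR 4.0.16, with those geometric means as library sizes and a threshold of 0.05 on Benjamini-Hochberg adjusted p-values. Single members and ratios were tested with two-sided exact permutation tests in scipy 1.17.1 under Python 3.11.15, over 252 splits for 5 against 5 and 35 for 4 against 3. p-values measure the spread between samples, each from a different mouse within CT, FT, CS and TS. The mice of the M samples are not named, so whether each tumor came from a different mouse is not known. In the study 2 mice gave both an FT and an M sample and are not named, so M and FT were treated as independent.

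On simulated data with 200 miRNAs changed 8-fold, edgeR called 96% of them in FT against CT and 97% in M against CT. It called 94% in M against FT and 72% in TS against CS. In that order, 1.54%, 2.51%, 2.59% and 2.04% of calls were false. Smaller changes were not simulated, and the largest change of a family member was 3.49-fold.

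Alternatives were TMM, median-of-ratios, miR-425, total count and positive ligation control scaling, DESeq2 1.42.0, limma 3.58.1 with pseudocounts of 1 and 10, the methods' t-test, subtraction of the negative controls, filters on mean counts of 20 and 50, CT, FT and M together, a block for the sample number and leaving out 1 sample at a time; a scaling set without the family was chosen after seeing the data. The methods name a two-tailed t-test without its variant or scale. It was run here as Welch's test on log2 normalized counts, so it need not repeat the authors' own counts of miRNAs. The members and lists were chosen with earlier results of these data known. Named are the 3 members, for each the 3 miRNAs most correlated with it in tissue and in plasma among those with a mean count of at least 50, and from each list the members past the threshold or else the one with the lowest p. M5 and CS1, excluded by the study, were not analysed here. The further conditional alleles that the mice carry are not reported here.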

Additional observations from a re-analysis of the deposited data

Results flagged for a closer look

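FT2 lay apart from the other 4 FT samples in 3 measures, each the lowest of FT with a gap to the next sample that exceeds Dixon's critical value at 95%. They were the log2 normalized count of miR-148a, 6.94, the log2 ratio of miR-148a over miR-148b, 1.24, and the log2 ratio of miR-148a over miR-152, 1.38. In all, 24 groups of 4 or 5 samples were examined and these 3 stood out, all resting on 1 sample and on the same low miR-148a; chance sets apart about 1 in 20 such groups. miR-148b and miR-152 in FT2 were not above the negative controls, so both ratios there rest on counts near background.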

How the results depend on the processing

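The limits were the 5 or fewer samples a group, the miR-148b and miR-152 counts near background in 5 and 3 of 22 samples, the shallow CS2 and CS3, and FT2. The cause was not tested for any change given here. The log2 fold change of miR-148a in M against CT no longer passed with TMM (-1.67), median-of-ratios (-1.61), miR-425 (-1.55) or positive ligation control scaling (-1.30), with the methods' t-test after adjustment (-2.17) and with CT, FT and M together (-1.80). It ran from -2.07 to -1.56 with 1 sample left out, and the call was lost without CT1, CT2, CT3, CT4, CT5, M1 or M4. In FT against CT the sign turned for miR-148a with TMM (0.15), median-of-ratios (0.26), miR-425 (0.0353) and ligation control scaling (1.06), for miR-148b with ligation control scaling (0.63), and for miR-152 with median-of-ratios (0.0491) and ligation control scaling (0.74). It turned for miR-148b in M against CT with miR-425 scaling (0.00417), and in M against FT with TMM (-0.45), median-of-ratios (-0.35), ligation control (-0.70) and total count scaling (-0.0670). With 1 sample left out, FT against CT ran from -0.49 to 0.13 for miR-148a and from -0.52 to 0.0148 for miR-152, and M against FT from -0.11 to 0.36 for miR-148b.

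The scaling set without the family, chosen after seeing the data, changed no member's call. In TS against CS none of 15 other settings, and no sample left out, changed a member's direction or brought it past the threshold. The interaction was rerun only with TMM, with limma and with each sample left out, and the same held there.

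For the ratios, a pseudocount of 10 gave -1.89 (miR-148a over miR-148b) and -2.49 (miR-148a over miR-152) in M against CT, both past the threshold, and turned miR-148a over miR-152 in TS against CS to 0.19. Subtraction of the negative controls turned miR-148a over miR-148b to 0.29 in FT against CT and to -1.33 in TS against CS, and miR-148b over miR-152 to 0.51 in M against FT and 0.68 in TS against CS. It moved the mean share of miR-148b in CS to 0.0299%. With 1 sample left out, the log2 difference in FT against CT ran from -0.85 to 0.65 (miR-148a over miR-148b), -0.67 to 0.15 (miR-148a over miR-152) and -0.50 to 0.21 (miR-148b over miR-152). In M against FT it ran from -2.45 to -0.96 and from -2.56 to -1.60 for the first 2 pairs, and in TS against CS from -0.29 to 0.42, -0.43 to 0.41 and -0.44 to 0.18.

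The number of miRNAs called in FT against CT, 1 in the report, was 2 with TMM, 2 with median-of-ratios, 3 with DESeq2, 6 with subtraction, 9 with the methods' t-test unadjusted, and 0 with miR-425 or ligation control scaling, limma with a pseudocount of 1 or 10, the adjusted t-test, minimum mean counts of 20 or 50 and the replicate block. In M against CT, 82 became 151 with TMM, 163 with median-of-ratios, 42 with ligation controls, 124 with DESeq2, 32 with the adjusted t-test, 133 with subtraction and 52 with the 3 groups together. In M against FT, 9 became 2 with miR-425 scaling, 23 with total count scaling, 29 with DESeq2, 5 with limma (pseudocount 1), 33 and 0 with the t-test before and after adjustment, 23 with the 3 groups together and 2 with the replicate block. In TS against CS, 0 became 24 with the unadjusted t-test and 90 with the replicate block. With 1 sample left out the counts ran from 0 to 12, from 50 to 101 and from 4 to 33 in the 3 tissue comparisons.

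Samples of 1 number share only that number: the correlations of their deviations from the group means ran from -0.37 to 0.32. With the replicate block, miR-148a in M against CT had a log2 fold change of -2.35 (edgeR, adjusted p = 0.0233), and no member's call changed in the comparisons run with it.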
